A study of Mus musculus with 6 samples.

Results

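The respiratory chain subunits examined here are the proteins of mitochondrial complexes I to V that are encoded in the nucleus. Their genes were taken by symbol from the mouse gene counts: Nduf followed by a, b, c, s or v and a digit for complex I, Sdha to Sdhd for complex II, Uqcr for complex III, Cox4 to Cox8 for complex IV and Atp5 for complex V. Of 39179 gene identifiers, 84 protein-coding genes met this rule, 37 of complex I, 4 of complex II, 8 of complex III, 18 of complex IV and 17 of complex V. A further 10 pseudogene rows with such symbols were left out. Livers came from C57BL/6J mice that were given a high-fat diet for 21 weeks that began at 5 weeks of age and in which fat gave 60% of the calories, with no transgene or drug named in the labels. On this diet all the mice were obese, and haematoxylin and eosin staining of liver biopsies sorted them into isolated steatosis (fat storage) and nonalcoholic steatohepatitis (NASH, with inflammation and cell injury). Each class has 3 libraries of polyadenylated RNA from liver, numbered 1 to 3. The groups are therefore histological classes on 1 diet, and no lean liver was analysed here. The labels do not say outright that each library came from its own mouse, so p-values measure only the spread between these libraries.

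Complex I takes electrons from NADH and complex II takes them from succinate, both passing them to ubiquinone. Complex III hands them on to cytochrome c, complex IV gives them to oxygen, and complex V (ATP synthase) makes ATP from the proton gradient that complexes I, III and IV build. Complexes I, III, IV and V also hold subunits encoded in mitochondrial DNA, so that their assembly draws on 2 genomes, whereas complex II is wholly nuclear. Liver depends on this chain to burn fatty acids.

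Total counts per library ran from 13909238 to 18002095. Mitochondrially encoded genes took 68.3% to 77.9% of the steatosis counts and 62.0% to 83.9% of the NASH counts. Loci with rRNA-like reads took 22.3% of NASH 3 and 8.96% of steatosis 2, against at most 1.06% of the other libraries. The nuclear subunits held 33001 to 48885 counts in a steatosis library and 14804 to 19708 in a NASH library. Hepatocyte markers stood far above the other marker lists in every library, with a summed level of 11919 to 14105 CPM (counts per 1000000 of a library size scaled by edgeR's TMM factors) in steatosis and 9724 to 12136 CPM in NASH. The fat cell markers Adipoq and Plin1 were at 0 counts in all libraries, and the whole fat marker list (3.38 to 15.4 CPM in steatosis, 0 to 2.01 CPM in NASH) was carried by Cidea, which is also known from fatty liver. The muscle marker list summed to at most 0.308 CPM in steatosis and 2.48 CPM in NASH. Kupffer cell markers summed to 23.1 to 28.5 CPM in steatosis and 21.0 to 51.6 CPM in NASH, and sinusoidal endothelial markers to 26.7 to 37.0 CPM and 31.5 to 50.9 CPM. Stellate cell markers, by contrast, summed to 40.2 to 41.1 CPM in steatosis and 24.2 to 27.8 CPM in NASH, a step carried by Dcn, the 1 of the 5 that passed the test (lower). The other 4 summed to 16.6 to 19.1 CPM in steatosis and 11.3 to 20 CPM in NASH. Among the 8 hepatocyte markers only Cyp2e1 was called (log2 fold change -1.16, edgeR adjusted p = 0.0351). Of the 8, 5 had a log2 fold change below 0. Alb and Ttr were lower in every NASH library without passing (log2 fold changes -0.40 and -0.54, edgeR adjusted p = 0.445 and 0.237). Apoa1 was higher in every NASH library without passing (log2 fold change 0.50, edgeR adjusted p = 0.315). The groups overlapped for Tat, Serpina1c, Cps1 and Hnf4a, which stood at -0.47, -0.11, 0.39 and 0.03. Each of the lists for recruited macrophages, cholangiocytes, T cells, B cells and neutrophils summed to at most 4.02 CPM in any library. These shifts in markers accompany the comparison below, and their part in it was not tested. In bulk liver, fewer cells of a type and less RNA per cell cannot be told apart.

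The comparison of NASH with steatosis asks whether the genes of the chain differ between livers with injury and livers with fat alone. Most subunits of all 5 complexes were lower in the NASH libraries. Of the counts outside the mitochondrially encoded and rRNA-like loci, the subunits made up 1.08%, 0.977% and 0.949% in steatosis 1, 2 and 3 and 0.728%, 0.627% and 0.677% in NASH 1, 2 and 3. The 2 groups did not overlap in this share, with means of 1.001% ± 0.0667 and 0.678% ± 0.0502 (SD, n = 3 per group). Low counts left 7 of the 84 genes untested. By edgeR's quasi-likelihood test, 21 of the 77 tested subunits fell (Benjamini-Hochberg adjusted p under 0.05 over all 11375 tested genes) and 0 rose. Among all tested genes, 3.33% were called lower and 1.49% higher. The median log2 fold change was -0.70 over the subunits and 0.01 over all tested genes, and it was below 0 for 70 of the 77 subunits against 49.4% of all genes. At an unadjusted p under 0.05 there were 50 lower subunits and 0 higher (12.9% of all tested genes were lower). DESeq2 called 27 lower and limma-voom 22, against 4.5% and 3.24% of all tested genes, and each called 0 higher. Without the low-count filter edgeR called 37 lower, against 4.61% of all genes in that fit. All 3 NASH libraries lay below all 3 steatosis libraries for 53 of the 77 subunits, a pattern seen in 16.2% of all tested genes.

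**Figure D1:**
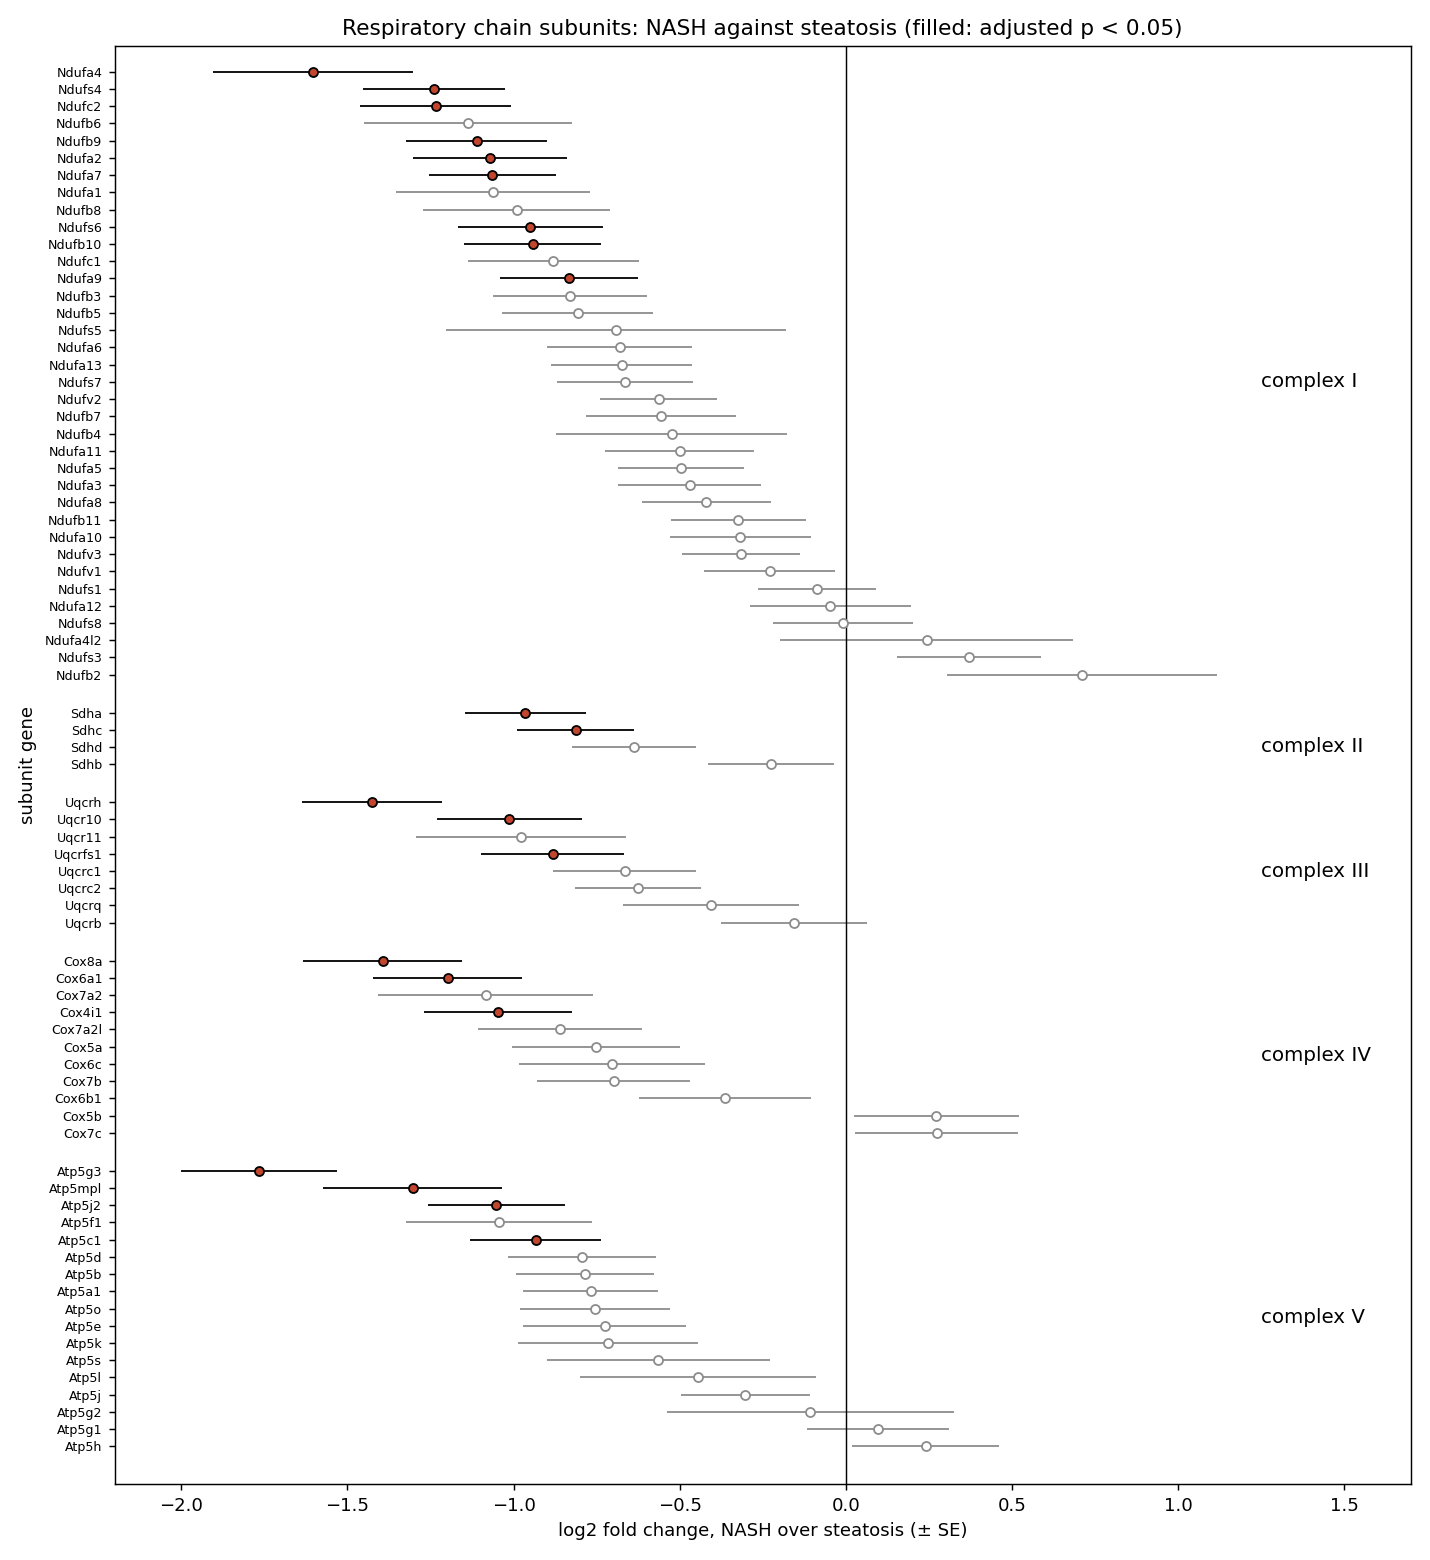
Log2 fold change of NASH over steatosis (x axis) with its standard error for 76 of the 77 tested subunits (y axis), grouped by complex. Filled points passed edgeR's test at an adjusted p under 0.05. All 21 filled points lie left of 0, and 7 open points lie right of it.

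Single calls depended on the libraries. With 1 library left out at a time, the median of the subunits stayed between -0.79 and -0.58, and each of the 21 called genes stayed below 0. The number called lower came to 2 without steatosis 1, 3 without steatosis 2, 16 without steatosis 3, 5 without NASH 1, 7 without NASH 2 and 10 without NASH 3. Over all tested genes the lower calls dropped too, to 0.656% without steatosis 1, 0.726% without steatosis 2, 2.6% without steatosis 3, 1.01% without NASH 1, 1.08% without NASH 2 and 1.15% without NASH 3. Atp5g3 and Uqcrh were the only subunits that passed in all 6 of these fits. Ndufs4 also passed without steatosis 2. Without NASH 1 the others were Ndufa4, Uqcr10 and Cox8a, and without NASH 2 they were Ndufs4, Ndufc2, Ndufa4, Cox8a and Atp5mpl. Without NASH 3 they were Ndufs4, Ndufa7, Ndufa4, Ndufb10, Sdha, Cox8a, Cox6a1 and Atp5mpl. Without steatosis 3, 15 of the 21 kept their call, Ndufs6, Ndufa9, Sdhc, Uqcr10, Uqcrfs1 and Cox4i1 lost it, and Ndufb5 gained one. Over these 6 fits the edgeR adjusted p of the 21 genes ranged from 0.00821 to 0.159 and their log2 fold change from -1.91 to -0.61. In the 4 libraries with few rRNA-like reads (steatosis 1 and 3, NASH 1 and 2) the median was -0.80 and edgeR called 0 subunits, with 43 lower at an unadjusted p under 0.05. Of all tested genes that fit called 0.163% lower, and 9.27% were lower at an unadjusted p under 0.05.

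Summed over its subunits, each complex stood lower in every NASH library than in every steatosis library. Complex I summed to 852, 703 and 658 CPM in steatosis 1, 2 and 3 and to 507, 445 and 497 CPM in NASH 1, 2 and 3. Complex II summed to 110, 101 and 99.5 CPM in steatosis and to 71.6, 68.2 and 72.9 CPM in NASH. For complex III the sums were 462, 381 and 321 CPM in steatosis against 291, 210 and 279 CPM in NASH. By these sums complex IV had the lowest NASH level relative to steatosis, at 55.6%, with 410, 343 and 294 CPM in steatosis and 206, 168 and 208 CPM in NASH. Complex V came close to it at 57.8%, with 549, 451 and 441 CPM in steatosis and 294, 252 and 287 CPM in NASH. The other complexes lay at 65.5% (I), 68.5% (II) and 66.9% (III). Uqcrq alone made up much of the sum of complex III, which without it stood at 57.5%. By the median log2 fold change of its subunits complex III was lowest, at -0.77, with -0.76 for complex V, -0.75 for IV, -0.73 for II and -0.66 for I. The differences between complexes were not tested. Within steatosis, library 1 held the highest sum of every complex, and within NASH library 2 held the lowest.

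**Figure D2:**
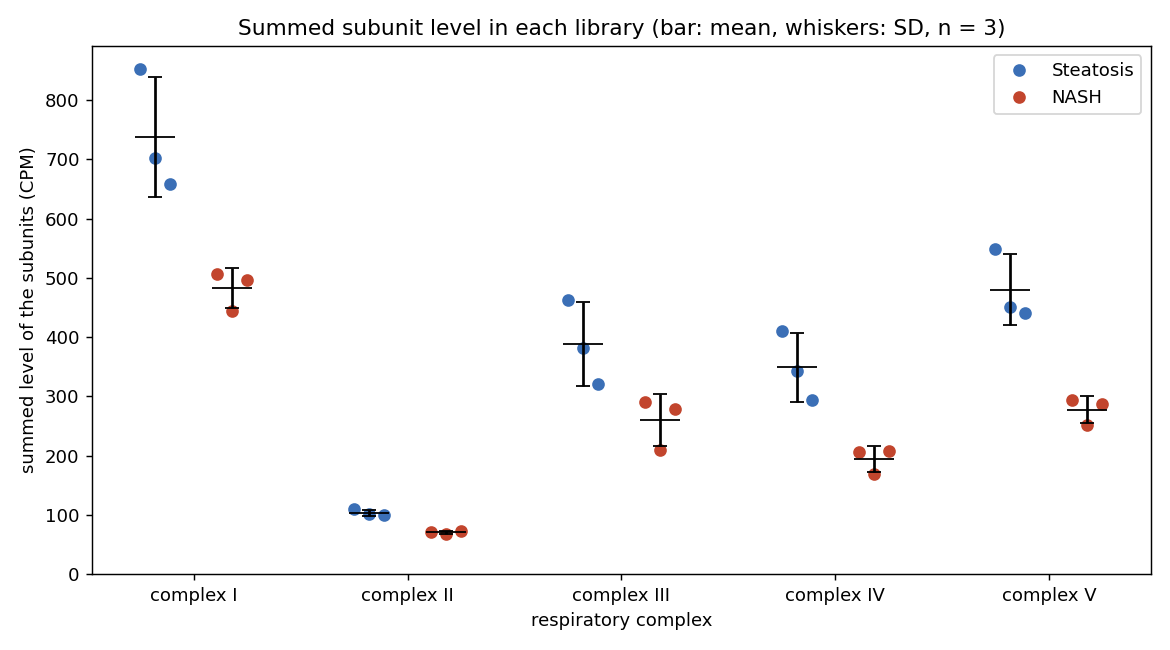
Summed level in CPM (y axis) of the subunits of each complex (x axis) in the 3 steatosis and 3 NASH libraries, as points, with the mean and SD. The NASH points of complex V lie between 252 and 294 CPM, all below the steatosis points at 441 to 549 CPM.

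Many respiratory genes carry binding motifs of nuclear respiratory factor 1 (NRF1) or of ETS factors such as GABP near their start sites, as background. RefSeq promoter windows of GRCm38.p6 (250 bases before to 50 after the start) were matched by symbol for 66 of the 84 genes. The core NRF1 motif, with 1 free base and searched on both strands, was present for 17 of these (25.8%) against 5.19% of 27025 genes in the table. The ETS letters CCGGAAG were present for 16 (24.2%) against 9.93%. Letters of YY1, AANATGGCG, were present for 10 (15.2%) against 2.76%. A window can hold more than 1 motif, and a match is a description of letters, not of binding. Of the tested subunits with a window, 16 were called and 46 were not. NRF1 matches were present for 5 of the called and 12 of the others, ETS matches for 3 and 13, and YY1 matches for 5 and 5. The median log2 fold change was -0.69 for subunits with any of the 3 motifs and -0.75 for those with none. Of the 62 tested subunits with a window, 37 had at least 1 of the 3 motifs. The 5 stretches below are examples picked because they hold a match upstream of the start site, each ending at the last base before it as RefSeq has it, with NRF1 and ETS matches in capitals. Cox6a1, Sdha and Uqcrh were called lower in NASH, whereas Sdhd and Atp5g2 were not called, and the same letters stand before both kinds.
Cox6a1 (minus strand, chr5:115348959-115349128): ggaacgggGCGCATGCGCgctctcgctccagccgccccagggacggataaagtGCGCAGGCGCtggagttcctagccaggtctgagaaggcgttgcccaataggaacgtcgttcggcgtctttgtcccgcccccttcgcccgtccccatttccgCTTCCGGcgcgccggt
Sdha (minus strand, chr13:74350241-74350350): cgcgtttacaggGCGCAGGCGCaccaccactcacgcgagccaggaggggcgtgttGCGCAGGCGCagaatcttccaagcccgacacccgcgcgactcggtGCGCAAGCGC
Sdhd (minus strand, chr9:50603850-50603939): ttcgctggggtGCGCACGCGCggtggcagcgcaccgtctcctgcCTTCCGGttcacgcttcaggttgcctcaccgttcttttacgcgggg
Uqcrh (minus strand, chr4:116075071-116075120): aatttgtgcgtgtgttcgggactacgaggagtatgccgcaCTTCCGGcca
Atp5g2 (minus strand, chr15:102671048-102671107): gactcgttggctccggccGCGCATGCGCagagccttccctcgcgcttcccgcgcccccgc
Cox6a1 shows 2 NRF1 matches and 1 ETS match and Sdha shows 3 NRF1 matches. Sdhd shows 1 of each, Uqcrh 1 ETS match and Atp5g2 1 NRF1 match.

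Complex I was described by 37 tested genes, of which 9 fell, 0 rose and 28 did not pass, with a median log2 fold change of -0.66. Among the 9 were 8 accessory subunits of the membrane arm and the peripheral arm, which surround the catalytic core and help to assemble or hold it. Ndufa4, first described in complex I and now usually placed in complex IV, measured 54.1, 38.7 and 36.7 CPM in steatosis and 17.2, 8.17 and 17.3 CPM in NASH. Its groups did not overlap, and NASH 2 was the lowest library (log2 fold change -1.60, SE 0.30, edgeR adjusted p = 0.0188). Ndufs4, an accessory subunit of the peripheral arm, measured 9.98, 7.43 and 9.98 CPM in steatosis and 3.27, 4.02 and 4.36 CPM in NASH (log2 fold change -1.24, SE 0.21, edgeR adjusted p = 0.0144). Ndufc2, of the membrane arm, measured 8.75, 6.83 and 6.31 CPM against 3.33, 3.42 and 2.45 CPM (log2 fold change -1.23, SE 0.23, edgeR adjusted p = 0.0181). In each of these genes the lowest steatosis library stood above the highest NASH library. Ndufb9, Ndufa2 and Ndufa7 fell with log2 fold changes of -1.11, -1.07 and -1.06 (adjusted p by edgeR 0.0202, 0.0314 and 0.0168). For Ndufs6, Ndufb10 and Ndufa9 these were -0.95, -0.94 and -0.83 (adjusted p by edgeR 0.0371, 0.0317 and 0.049). The last of these was the call nearest the threshold. It was lost with limma-voom, with the other scalings tried in edgeR and in all 6 fits with 1 library left out (adjusted p by edgeR 0.0589 to 0.159). Exons of Ndufa2 overlap Tmco6 and those of Ndufs6 overlap Mrpl36 on the opposite strand, and counting without strand could not separate them.

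No gene of the catalytic core of complex I passed the test. Its 7 nuclear members carry the flavin and the iron-sulphur clusters that lead electrons from NADH to ubiquinone. Of the 7, edgeR, DESeq2 and limma-voom each called 0, against 3.33%, 4.5% and 3.24% of all tested genes called lower. With only 7 genes, 0 calls do not set the core apart from those shares. By edgeR 2 had an unadjusted p under 0.05, both lower (Ndufs7 and Ndufv2), against 12.9% of all tested genes lower. The median log2 fold change was -0.23 in the core and -0.75 in the 30 other complex I genes, a difference that was not tested. Ndufs1, the largest core subunit, measured 17.1, 15.5 and 14.6 CPM in steatosis and 15.4, 16 and 12.9 CPM in NASH, with overlapping groups (log2 fold change -0.09, SE 0.18). Ndufs8 measured 27.7, 27.3 and 19.1 CPM in steatosis and 23.0, 28.1 and 22.4 CPM in NASH. Its log2 fold change of -0.01 (SE 0.21) turned to 0.12 when libraries were scaled to counts outside the mitochondrial and rRNA-like loci, and that of Ndufs1 turned to 0.03. Ndufv1, which binds NADH, stood at -0.23 (SE 0.20). Ndufs7, which holds the last cluster before ubiquinone, measured 33.7, 31.4 and 28.1 CPM in steatosis and 23.3, 15.7 and 19.8 CPM in NASH. These groups did not overlap, but the adjusted p was 0.0896 by edgeR (log2 fold change -0.66, SE 0.21). Ndufs4 and Ndufs1, chosen after their values were seen, can be set against each other within a library. The ratio of their CPM was 0.583, 0.481 and 0.684 in steatosis and 0.212, 0.251 and 0.338 in NASH. Ndufab1, the acyl carrier protein of complex I, lies outside the symbol rule and stood at -0.46 (SE 0.24, edgeR adjusted p = 0.284).

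Complex II links the chain to the citric acid cycle. Of its 4 genes 2 fell, 0 rose and 2 did not pass. Sdha, the flavoprotein that oxidizes succinate, measured 25.5, 22 and 23.7 CPM in steatosis and 12.6, 10.5 and 13.4 CPM in NASH (log2 fold change -0.96, SE 0.18, edgeR adjusted p = 0.0199). Sdhc, a membrane anchor, measured 25.3, 26.7 and 25 CPM against 15.6, 13.1 and 15.2 CPM (log2 fold change -0.81, SE 0.18, edgeR adjusted p = 0.0314). Sdhd, the other anchor, measured 10.7, 10.5 and 9.09 CPM against 5.84, 6.43 and 7.17 CPM and did not pass (log2 fold change -0.64, SE 0.19, edgeR adjusted p = 0.0775). Sdhb, the iron-sulphur subunit, measured 48.5, 41.8 and 41.7 CPM against 37.5, 38.2 and 37.1 CPM. For all 4 genes NASH lay wholly below steatosis, a pattern seen in 16.2% of all tested genes. The step was small for Sdhb (log2 fold change -0.23, SE 0.19, edgeR adjusted p = 0.517). The ratio of Sdha to Sdhb, 2 genes chosen after their values were seen, was 0.525, 0.527 and 0.569 in steatosis and 0.335, 0.275 and 0.362 in NASH. With 1 library left out at a time, Sdha passed without steatosis 3 and without NASH 3 only (adjusted p by edgeR from 0.04 to 0.0753). Sdhc passed in 0 of these 6 fits (0.0532 to 0.119).

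**Figure D3:**
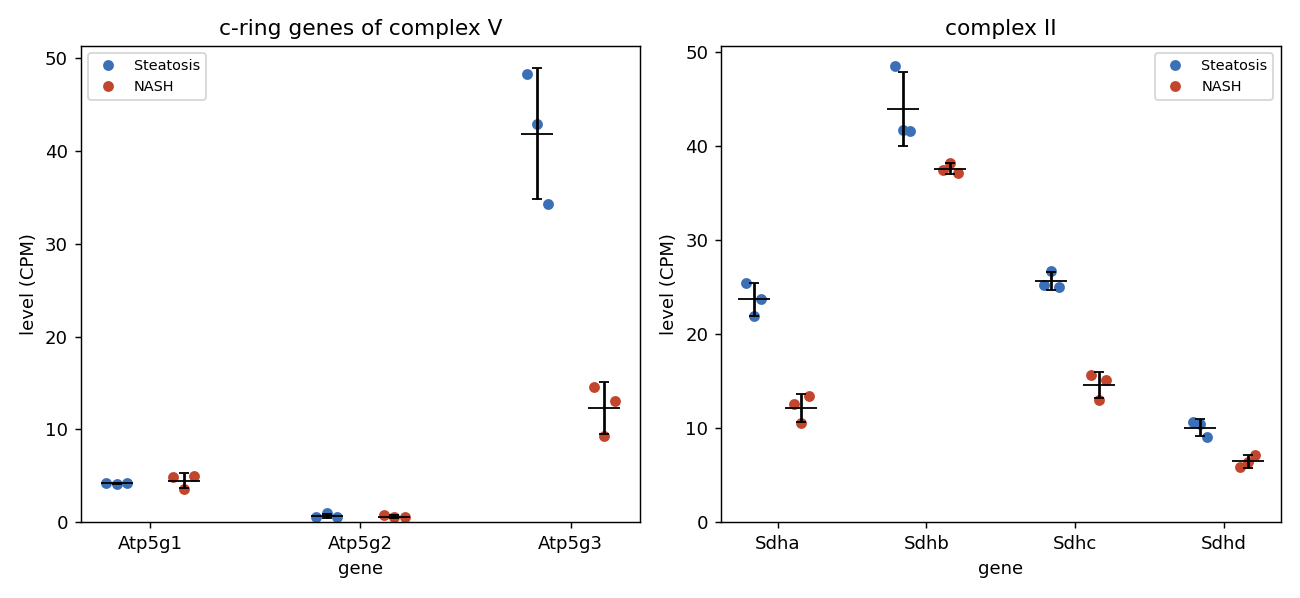
Level in CPM (y axis) of the 3 c-ring genes of complex V (left) and the 4 genes of complex II (right) in each library, with the mean and SD of 3 libraries. Atp5g3 drops from 34.3 to 48.3 CPM in steatosis to 9.24 to 14.6 CPM in NASH, while Atp5g1 stays between 3.62 and 4.99 CPM in all 6 libraries.

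Complex III had 3 lower genes among 8, and 5 that did not pass, with a median log2 fold change of -0.77. Uqcrh, the hinge protein beside cytochrome c1, lies at chr4:116066965-116075071 on the minus strand (GRCm38). It measured 18.8, 17.3 and 19.0 CPM in steatosis and 8.20, 5.09 and 7.26 CPM in NASH (log2 fold change -1.43, SE 0.21, edgeR adjusted p = 0.00874). The 3 steatosis libraries were tightly grouped, and the highest NASH library was below the lowest of them. Uqcr10, a small membrane subunit, measured 24.4, 17.3 and 19.5 CPM against 12.3, 8.10 and 9.90 CPM (log2 fold change -1.01, SE 0.22, edgeR adjusted p = 0.031). Uqcrfs1, the Rieske iron-sulphur protein that passes on electrons, measured 59.4, 52.0 and 46.6 CPM against 32.0, 23.0 and 30.8 CPM (log2 fold change -0.88, SE 0.22, edgeR adjusted p = 0.0465). Uqcrfs1 passed in 0 of the 6 fits with 1 library left out (adjusted p by edgeR 0.057 to 0.153). The core proteins Uqcrc1 and Uqcrc2 were lower in every NASH library without passing (log2 fold changes -0.67 and -0.63, edgeR adjusted p = 0.1 and 0.0844). Cyc1, cytochrome c1 itself, is outside the symbol rule and stood at -0.43 (SE 0.18, edgeR adjusted p = 0.196). Uqcrq had the highest level of all 84 genes per length of transcript, 499.8 CPM per kilobase in steatosis, followed by Atp5e at 115 CPM per kilobase. Its values of 249, 207 and 151 CPM in steatosis overlapped those of 170, 119 and 170 CPM in NASH. Uqcrb stood at -0.15 (SE 0.22), with 3 near-identical gene copies in the annotation.

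For complex IV, cytochrome c oxidase, the catalytic subunits are mitochondrially encoded and the nuclear ones surround them. Of the 18 genes 11 were tested, 3 fell, 0 rose and 8 did not pass. Cox8a, one of the smallest subunits, measured 52.8, 42.9 and 38.8 CPM in steatosis and 20.8, 12.5 and 17.8 CPM in NASH (log2 fold change -1.39, SE 0.24, edgeR adjusted p = 0.014). Cox6a1 measured 69.9, 58.1 and 53.3 CPM against 27.2, 21.2 and 30.6 CPM (log2 fold change -1.20, SE 0.22, edgeR adjusted p = 0.0183). Cox4i1, which is added early in assembly and binds ATP, measured 86.1, 60.4 and 69.2 CPM against 39.8, 31.1 and 33.4 CPM (log2 fold change -1.05, SE 0.22, edgeR adjusted p = 0.0307). These 3 genes stood at 38.0%, 43.6% and 48.4% of their steatosis means in NASH, with no overlap of the groups. Cox4i1 shares exon positions with Emc8 on the opposite strand, and it failed to pass in each fit with 1 library left out (edgeR adjusted p of 0.0512 to 0.106). Cox7a2 measured 20.8, 13.6 and 16.2 CPM against 10.8, 4.02 and 9.08 CPM and did not pass (log2 fold change -1.08, SE 0.32, adjusted p = 0.082 by edgeR), although DESeq2, and edgeR without the low-count filter, called it lower. Cox5a, Cox6c and Cox6b1 stood at -0.75, -0.70 and -0.36 without passing (edgeR adjusted p = 0.109, 0.166 and 0.443).

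Several subunits of complex IV have a second gene that is used in heart and skeletal muscle, lung or testis. These were nearly silent in both groups. Cox6a2, Cox7a1 and Cox8b, the muscle partners of Cox6a1, Cox7a2 and Cox8a, reached at most 0.268, 0.469 and 0.0695 CPM in any library. Cox4i2, the partner of Cox4i1 known from lung, reached 0.182 CPM and Cox6b2, known from testis, 0.36 CPM. Cox7b2 and Cox8c had 0 counts in all 6 libraries. These 7 are the genes that were not tested, and their levels were low in steatosis and NASH alike. Ndufa4l2, a relative of Ndufa4 that is known to respond to hypoxia, was tested at 0.482 to 1.27 CPM and stood at 0.24 (SE 0.44), with exons that overlap Shmt2 on the opposite strand.

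Complex V had the lowest single value of all subunits. Of its 17 genes 4 fell, 0 rose and 13 did not pass, with a median log2 fold change of -0.76. Atp5g3 is 1 of 3 genes for the c subunit, whose ring turns as protons pass, and lies at chr2:73908447-73911326 on the minus strand (GRCm38). It measured 48.3, 42.9 and 34.3 CPM in steatosis and 14.6, 9.24 and 13.1 CPM in NASH, 29.4% of the steatosis mean (log2 fold change -1.77, SE 0.24, edgeR adjusted p = 0.00554). The groups were far apart, and the adjusted p of Atp5g3 stayed between 0.00821 and 0.0285 with any 1 library left out (edgeR). Atp5g1, which encodes the same mature c subunit, measured 4.25, 4.08 and 4.23 CPM in steatosis and 4.86, 3.62 and 4.99 CPM in NASH (log2 fold change 0.10, SE 0.21). Atp5g2, the remaining one, was at 0.519 to 0.959 CPM in all libraries (log2 fold change -0.11, SE 0.43), and this value turned to 0.28 in the 4 libraries with few rRNA-like reads. The ratio of Atp5g3 to Atp5g1 CPM was 11.4, 10.5 and 8.11 in steatosis and 3, 2.56 and 2.62 in NASH, a pair chosen after its values were seen. Over most of their length, Atp5g1 (69.0%) and Atp5g2 (100%) transcripts match another annotated gene at 95% identity or more, whereas no such match was found for Atp5g3.

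The central shaft and the membrane part of ATP synthase gave the other called genes. Atp5mpl, a small membrane protein of the enzyme, measured 17.2, 16.5 and 14.5 CPM in steatosis and 7.36, 3.82 and 8.44 CPM in NASH (log2 fold change -1.30, SE 0.27, edgeR adjusted p = 0.0272). Atp5j2, subunit f of the membrane part, measured 44.6, 43.1 and 40.3 CPM against 23.3, 16.4 and 22.1 CPM (log2 fold change -1.05, SE 0.21, edgeR adjusted p = 0.0219). Atp5c1, the gamma subunit and central shaft, measured 38.9, 28.2 and 29.0 CPM against 16.3, 17.3 and 16.7 CPM (log2 fold change -0.93, SE 0.20, edgeR adjusted p = 0.0291). In all 3 genes NASH lay wholly below steatosis. Atp5a1 and Atp5b, the alpha and beta subunits that form the catalytic head, were close to the threshold (log2 fold changes -0.77 and -0.78, edgeR adjusted p = 0.0582 for each), and DESeq2 and limma-voom called both lower. Atp5a1 measured 80.9, 66.0 and 64.1 CPM in steatosis and 40.2, 41.6 and 42.1 CPM in NASH. The 5 genes of the F1 part (head and shaft) had log2 fold changes from -0.93 to -0.73. The 11 genes of the membrane part and stalk spread from -1.77 to 0.24. Atpif1, the inhibitor that stops the enzyme from running backwards, is outside the symbol rule and stood at -0.18 (SE 0.34, edgeR adjusted p = 0.808).

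**Figure D4:**
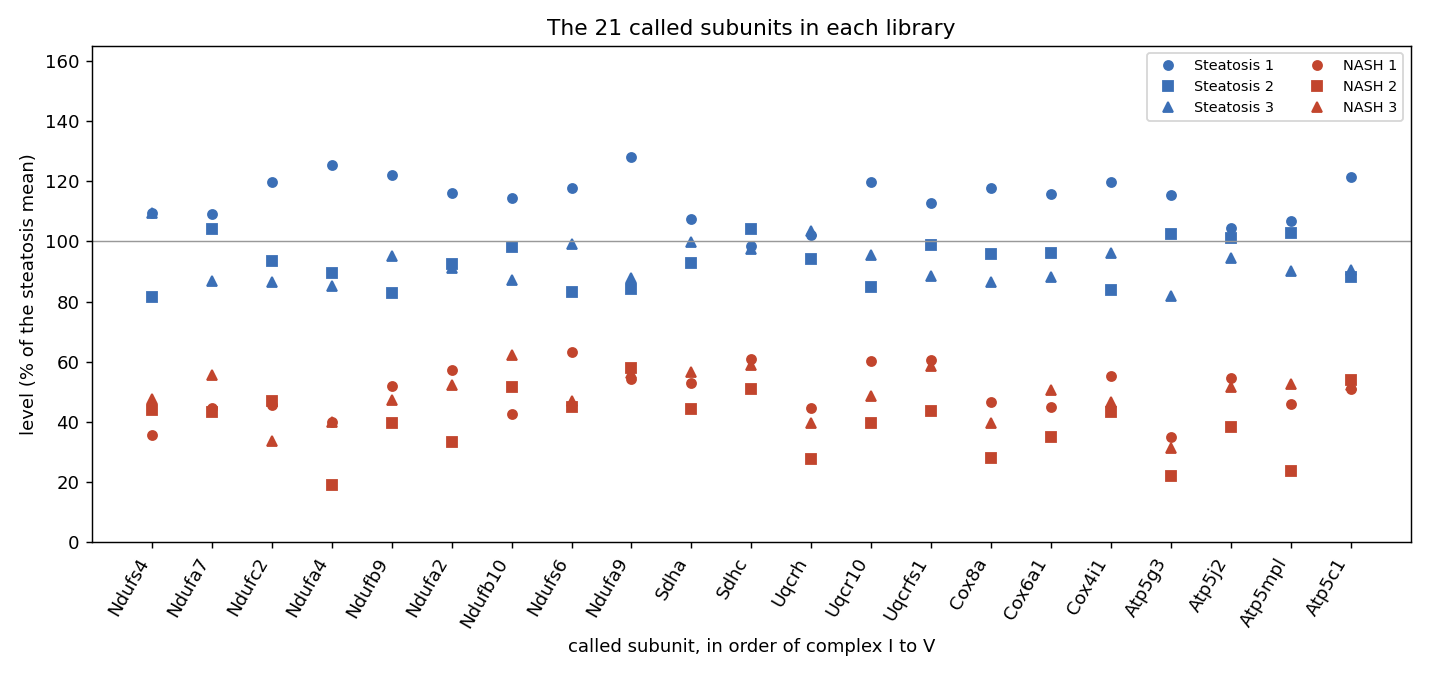
Level of the 21 called subunits (x axis) in each library, as a percentage of the gene's steatosis mean (y axis). NASH libraries lie between 18.9% and 63.2% and steatosis libraries between 81.4% and 128%. The genes were chosen by the test on these same libraries, so a gap follows from the choice.

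Summed over all 84 subunits, the NASH mean was 62.4% of the steatosis mean. The 21 called genes were chosen by the test on these same libraries, so a gap between the groups follows from that choice. Across these 21 genes all 3 NASH libraries lay well below the steatosis mean. The median over these genes was 50.9% of the steatosis mean in NASH 1, 43.1% in NASH 2 and 50.7% in NASH 3, and 14 of the 21 were at least 2-fold lower. NASH 2 held the lowest NASH value for 16 of the 21 genes, and steatosis 1 held the highest steatosis value for 18. NASH 2 also had the highest share of mitochondrially encoded counts, 83.9%, and its part in these values was not tested.

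A further description concerns how uniquely a gene can be counted. A near-identical copy elsewhere (at least 95% identity over at least 100 bases of transcript) was found for 22 of the tested subunits, and reads shared between copies could have been dropped or misplaced. Of these 22, 2 fell (Uqcr10 and Atp5c1), with a median log2 fold change of -0.61 and 17 below 0. Of the 55 without such a copy, 19 fell, with a median of -0.77 and 53 below 0. All 7 subunits with a log2 fold change above 0 either had a copy (Ndufs3, Cox7c, Cox5b, Atp5h and Atp5g1) or shared exon positions with a gene on the opposite strand (Ndufb2 and Ndufa4l2). In all, 39 of the 77 tested subunits had 1 or both of these features. With neither a copy nor such an overlap there were 38 tested subunits, of which 16 fell and 38 stood below 0 (median -0.82). The nearest to 0 was Ndufs8 at -0.01, whose sign turned in other fits. Overlaps on the same strand, such as that of Ndufb8 with Gm20538, did not enter this split. The copies were looked for after the fold changes were seen, the split was not tested, and copies that the annotation lacks were not counted. The level per length of transcript in steatosis was 5.84 CPM per kilobase for Cox7c and 5.62 for Cox5b, both with copies, but 80 for Cox6c, which has 2 copies, and 81.5 for Cox8a, which has none. Cox7c was the 1 subunit whose NASH values (3.75, 3.68 and 3.90 CPM) all lay above those of steatosis (3.51, 3.66 and 2.30 CPM), a pattern seen in 13.1% of all tested genes, and it did not pass (log2 fold change 0.27, edgeR adjusted p = 0.548).

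Most subunits are small proteins, and short coding genes had lower fold changes as a whole. Over all tested coding genes, those with under 400 coding nucleotides had a median log2 fold change of -0.31 (476 genes, 7.77% called lower), and those of 400 or more had one of 0.03 (10059 genes, 3.09%). The subunits lay below both. Those under 400 nucleotides had a median of -0.73 (35 genes, 11 lower), and those of 400 or more had one of -0.66 (42 genes, 10 lower). Across the 77 subunits Spearman's rho of coding length and log2 fold change was 0.21, and across all 10535 tested coding genes 0.25. Across the 55 subunits without a near-identical copy it was 0.33. These are descriptions across genes, which are not independent and share the same libraries. The part of gene length in the fall of the subunits was not tested.

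**Figure D5:**
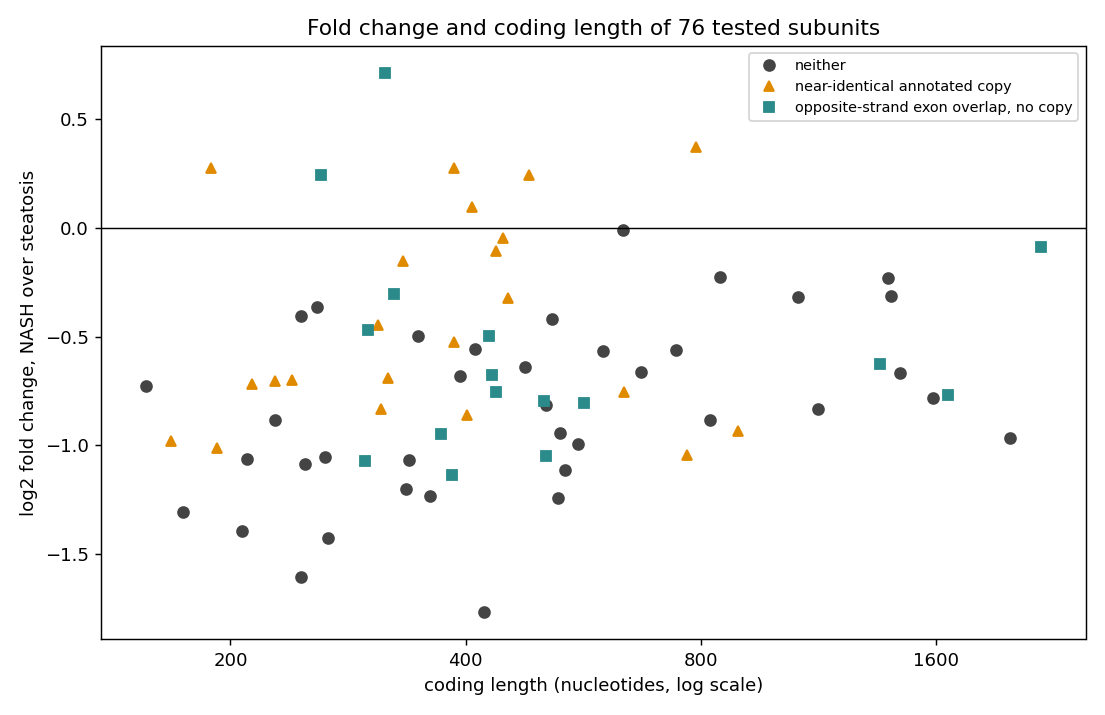
Log2 fold change of NASH over steatosis (y axis) against coding length in nucleotides on a log scale (x axis) for 76 of the 77 tested subunits. Circles have neither a near-identical copy nor an opposite-strand overlap and all 38 lie below 0, while the 7 points above 0 are triangles (copy) or squares (overlap).

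By edgeR, lists of genes around the chain gave between 0 and 2 calls each. Over all tested genes edgeR, DESeq2 and limma-voom called 3.33%, 4.5% and 3.24% lower, and edgeR called 1.49% higher. Of 38 tested assembly factors edgeR called 2 lower and 0 higher, DESeq2 3 lower and 1 higher, and limma-voom 2 lower and 0 higher, with a median log2 fold change of -0.24. They were Uqcc3 and Coa6, which help to build complexes III and IV (log2 fold changes -0.94 and -0.92, edgeR adjusted p = 0.0371 and 0.0447). With 1 library left out, Coa6 passed in 0 of 6 fits (adjusted p by edgeR 0.0576 to 0.139) and Uqcc3 in 1, that without steatosis 3 (0.0348 to 0.136). Coa7 and Ndufaf8 stood at -0.91 and -1.16 without passing (edgeR adjusted p = 0.0547 and 0.0598). Of 13 genes of ubiquinone synthesis 1 fell and 0 rose, Coq7, the hydroxylase near the end of the pathway. It measured 8.32, 6.83 and 6.57 CPM in steatosis and 3.13, 3.08 and 2.91 CPM in NASH (log2 fold change -1.25, SE 0.20, edgeR adjusted p = 0.0121). Without steatosis 1 it did not pass (adjusted p by edgeR 0.051). Coq2 was higher in every NASH library without passing (log2 fold change 0.50, edgeR adjusted p = 0.149). The list's median was -0.04, with 8 of the 13 below 0. Of 7 genes for ATP, phosphate and proton transport 1 fell and 0 rose, Slc25a5, an exchanger of ADP and ATP across the inner membrane. It measured 31.2, 23.1 and 28.0 CPM against 12, 8.91 and 9.99 CPM (log2 fold change -1.41, SE 0.20, edgeR adjusted p = 0.00807).

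The electron-transfer flavoproteins, which feed electrons from fatty acid oxidation to ubiquinone, were near the threshold. For Etfa, Etfb and Etfdh the log2 fold change was -1.02, -0.86 and -1.22 (adjusted p by edgeR 0.0543, 0.0549 and 0.0784). All 3 passed in edgeR without the low-count filter, Etfa also without NASH 1 and Etfdh also without steatosis 3. Etfdh measured 45.0, 19.4 and 15.5 CPM in steatosis and 13.3, 10.8 and 9.90 CPM in NASH. Its fold change thus leaned on steatosis 1. Of the 10 listed carriers and donors to ubiquinone, edgeR with the filter called 0, DESeq2 called 3 lower and limma-voom 2. Over all tested genes these tools called 3.33%, 4.5% and 3.24% lower. At an unadjusted p under 0.05 edgeR had 4 of the 10 lower and 1 higher. The 1 higher was Dhodh, above steatosis in every NASH library (log2 fold change 0.64, edgeR adjusted p = 0.166). Of all 11375 tested genes, 2637 had an unadjusted p under 0.05 by edgeR, 1472 of them lower. The transcription factors and coactivators known to drive respiratory genes gave 0 calls among 14 tested, by edgeR, DESeq2 and limma-voom alike. Their median was 0.06, with 2 lower and 3 higher by edgeR at an unadjusted p under 0.05. The smallest p-values were those of Tfb1m (log2 fold change 0.86), Pprc1 (0.71), Gabpb1 (0.53) and Tefm (-0.69), with edgeR adjusted p = 0.11, 0.111, 0.161 and 0.194. The 13 mitochondrially encoded subunits had log2 fold changes above 0 in every case, with a median of 0.49. In 2 of the 6 fits with 1 library left out, 11 (without steatosis 3) and 12 (without NASH 1) of the 13 were above 0. As a share of all counts, mitochondrially encoded genes took 72.3% ± 5.00 in steatosis and 75.9% ± 12.1 in NASH (SD, n = 3 per group), with overlapping groups. EdgeR called 0 of the 13 subunits (2 higher at an unadjusted p under 0.05), DESeq2 called 1 higher and limma-voom 0. Of all tested genes, edgeR called 1.49% higher.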

How the data were processed

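Per the labels' protocols, polyadenylated liver RNA was sequenced as pairs of 150 bp reads. TopHat2, HTSeq and the genome build mm10 (GRCm38) are listed, per the submitters' processing notes, with no tool version. How shared reads and strand were treated, and with which annotation release, was not given in the sources used here. Each deposited file holds the authors' raw counts per Ensembl gene. Symbols were found for 37607 of 39179 identifiers. Positions and lengths are from GENCODE M21 (GRCm38), promoters from RefSeq (GRCm38.p6).

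In R 4.3.3, edgeR 4.0.16 (default low-count filter, TMM factors of 0.793 to 1.5, quasi-likelihood test, Benjamini-Hochberg adjustment over 11375 genes, called under 0.05) compared NASH with steatosis. SEs were taken from the fold change and the F statistic, an approximation. The edgeR fit was tested on simulated counts with 50 genes changed at each fold size. It recovered 14% of 1.5-fold, 22% of 2-fold, 92% of 3-fold and 96% of 4-fold changes, and 4.27% of its calls were false. A gene that did not pass can therefore still differ. DESeq2 1.42.0, limma-voom (limma 3.58.1), other scalings, filters and thresholds, a replicate block and left-out libraries were alternatives. Pairs of libraries within a group differed by at least 34.0 chi-square units per degree of freedom.

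Members and lists were chosen with earlier results of these data known. The text names every called member, the members of each complex with the 3 smallest p and the fold change nearest 0, core subunits and paired isoforms whatever their result, and up to 4 genes of each pathway list. Other names were chosen after their values were seen. Near-identical copies were sought with BLAST among annotated transcripts. Where the symbol in the files differs from a listed name, the files' symbol is used. The values of 1 tested subunit are not reported here, although it is counted.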

Additional observations from a re-analysis of the deposited data

How the results depend on the processing

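The median log2 fold change of the subunits kept its direction under every alternative run, between -0.80 and -0.58, and so did that of each complex with any 1 library left out (complex I -0.73 to -0.52, II -0.77 to -0.67, III -0.88 to -0.61, IV -0.89 to -0.70, V -0.81 to -0.64). The number called lower, 21, ranged from 2 to 16 with 1 library left out. It was 0 in the 4 libraries with few rRNA-like reads, 37 without the low-count filter, 40 at an adjusted p under 0.1 (6.89% of all tested genes) and 2 at one under 0.01 (0.36%), and 0 were higher in each. Scaled to counts outside the mitochondrial and rRNA-like loci without TMM, it was 17 (1.95% of all tested genes), the median of complex II was -0.616 against -0.73, and the median of all tested genes shifted from 0.01 to 0.12. Fits without a library have fewer libraries by construction. Otherwise the cause was not tested.

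Same-numbered steatosis and NASH libraries did not deviate together (correlations of 0.03, -0.01 and 0.07), so the numbers were not taken as pairs. With the replicate number as a block 18 subunits were lower, 17 of them among the 21, against 2.75% of all tested genes, and the median was -0.7145. In that fit Cox7a2, Etfa and Etfdh also passed (adjusted p by edgeR 0.0328, 0.0421 and 0.0465), and Ndufb10, Ndufa9, Sdhc, Uqcrfs1, Coa6 and Uqcc3 did not (0.0525 to 0.0704).

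Near 0, signs turned for Ndufs8 (0.0038 with DESeq2, 0.003 with its size factors, 0.0309 with upper-quartile factors, 0.116 with the scaling without TMM, 0.0007 with the block, 0.13 in the 4 libraries), Ndufs1 (0.0316 with the scaling without TMM) and Atp5g2 (0.28 in the 4 libraries). With 1 library left out, the log2 fold change also turned within the ranges of Ndufs8 (-0.144 to 0.0917), Ndufs1 (-0.1315 to 0.0085), Atp5g2 (-0.298 to 0.205), Atpif1 (-0.324 to 0.0867), Ndufa4l2 (-0.0512 to 0.5203) and Uqcrb (-0.2697 to 0.0022).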
